A study of Mus musculus with 6 samples.

Results

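The small leucine-rich proteoglycans are secreted core proteins of the extracellular matrix, described here through 9 genes: Dcn (decorin), Bgn (biglycan), Aspn (asporin), Lum (lumican), Fmod (fibromodulin), Prelp, Omd (osteomodulin), Ogn (osteoglycin) and Podn (podocan). They were found by their gene names among the gene probes of the arrays, where each had 1 probe, so that 9 of 55681 gene probes are described, and all 9 were among the 22991 genes tested. The hearts came from 8-week-old male C57BL/6 mice in which the left anterior descending coronary artery had been ligated to cause a myocardial infarction, and they were taken 21 days later. One group of 3 had received an antagomir against miR-433 (antagomirs are modified oligonucleotides that pair with a microRNA and silence it) at 80 mg/kg by tail vein on 3 consecutive days, and the other group of 3 a scrambled control. Both groups carry the infarct, and no uninjured heart is used here, so the values compare 2 kinds of infarcted heart. The study asked whether blocking miR-433 prevents cardiac fibrosis. The part of the heart is not stated, nor whether the 6 samples came from 6 mice, so that p-values measure only the spread between these samples, which may be technical.

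As background, small leucine-rich proteoglycans bind collagen fibrils through a curved stack of leucine-rich repeats and limit how thick the fibrils grow. Most carry a sugar chain, chondroitin or dermatan sulfate on decorin and biglycan and keratan sulfate on lumican and fibromodulin. Several also bind TGF-beta, and soluble biglycan signals through Toll-like receptors. In the infarcted heart they are made mainly by fibroblasts, as parts of the scar. A microRNA finds its targets with its seed, bases 2 to 8 from its 5′ end. The sample labels do not name the arm of miR-433 that the antagomir was made against. The mature sequences of both arms of mouse miR-433 (RefSeq, GRCm38.p6, chromosome 12, plus strand) are therefore shown, with the seed in capitals.
mmu-miR-433-3p: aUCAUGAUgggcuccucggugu
mmu-miR-433-5p: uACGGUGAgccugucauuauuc

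RNA was hybridised to 1-colour Cy3 arrays, all on 1 slide and read in 1 scan, and no gene spot was saturated. The share of gene spots called well above background was 57.7% to 58.5% on control arrays, and 55.2%, 56.2% and 73.6% on antagomir arrays 1, 2 and 3. Antagomir array 3 differed from the rest in its dim probes. Of purine-rich probes (61.7% of bases or more) that were dim everywhere else, it called 85.3% well above background, against 3.92% of purine-poor ones (38.3% or less). Pairs of arrays correlated across genes at 0.953 to 0.992, and genes are not independent replicates. A level here is the log2 processed signal less the 75th percentile of its array, a fold change is antagomir minus control on that scale, and n = 3 a group throughout. The brightness of a spot depends on its probe, so the levels of different genes are not ordered.

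Most of the family was lower in the hearts given the antagomir, and unevenly so. Fmod, Aspn, Lum, Bgn, Omd and Ogn were lower on every antagomir array than on every control array, by 11.4-fold for Fmod down to 1.47-fold for Ogn. Dcn and Podn had fold changes near 0, and Prelp overlapped between the groups. Of all genes tested, 6.93% lay below the controls on every antagomir array, against 6 of the 9 members. No member lay above the controls on every antagomir array, as 8.78% of all genes did. The same 6 had an unadjusted limma p under 0.05, as did 4.16% of all genes in that direction, and no member had one in the other direction (3.05% of all genes). With the limma p adjusted over all genes, 0 of the 9 members passed 0.05, and 3 of the 22991 genes did (0.013%). The median fold change of the 9 was −1.14, against 0.09 over all genes tested, of which 37.4% were lower. An exact permutation test of 3 arrays against 3 cannot go below 0.1, the two-sided p of each of the 6.

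**Figure D1:**
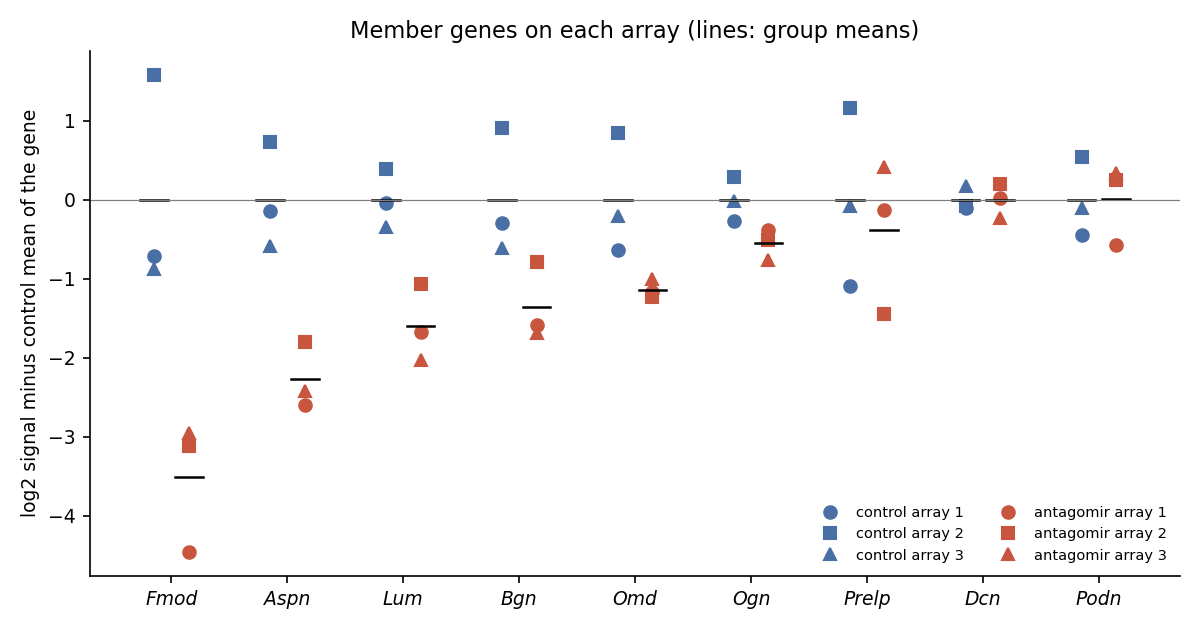
Log2 signal of each gene on each array, minus the gene's mean over the control arrays, with group means as lines (blue, control; red, antagomir; symbols, array number). The red points of the first 6 genes from Fmod to Ogn lie below all blue points of the same gene, and those of Prelp, Dcn and Podn overlap them; control array 2 (blue squares) is the highest control in 8 of the 9 genes.

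Fibromodulin differed most. Fmod, a keratan sulfate proteoglycan that binds type I collagen and takes part in its crosslinking, had processed signals of 683, 3459 and 579 on control arrays 1 to 3 and of 41.4, 106 and 129 on antagomir arrays 1 to 3. Control array 2 was far above the other controls, and antagomir array 1 was the lowest, but the groups did not overlap. The control level was 1.34 ± 1.38 (SD, n = 3) and the antagomir level −2.17 ± 0.82, which makes the log2 fold change −3.51 (SE 0.76, 95% interval −5.38 to −1.64, limma adjusted p = 0.545). Ordered from the lowest fold change, it had rank 15 of the 22991 genes. Without control array 2 it was −2.72. Its probe is on mm9 chromosome 1 from 135943998 to 135944057.

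Lum, the other keratan sulfate member with a large difference, is known for the spacing of collagen fibrils in the cornea. Its signals were 21079, 29257 and 16233 in controls and 5531, 8481 and 4755 with the antagomir. No antagomir array reached the lowest control, and the gap between the groups was 0.72 on the log2 scale. The level was 5.62 ± 0.37 in controls and 4.02 ± 0.49 with the antagomir, and the fold change −1.59 (SE 0.31, limma adjusted p = 0.517), a 3.02-fold difference. Its values stayed between −1.85 and −1.37 with any array left out. The probe lies on chromosome 10 from 97035210 to 97035269.

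Aspn encodes asporin, which is related to decorin and biglycan, carries a run of aspartates and binds collagen and TGF-beta. Its signals were 2096, 3968 and 1481 in controls and 311, 548 and 391 with the antagomir. These groups were well apart, with a gap of 1.22 on the log2 scale. The fold change was −2.27 (SE 0.39, 95% interval −3.22 to −1.32, limma adjusted p = 0.499), or 4.83-fold, on a probe on chromosome 13 from 49662479 to 49662538.

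Bgn encodes biglycan, which binds collagen and TGF-beta and, once released, Toll-like receptors on macrophages. It had signals of 1739, 4142 and 1327 in controls and 579, 1013 and 597 with the antagomir. Control array 2 stood above the other controls, and antagomir array 2 came within 0.17 of control array 3 on the log2 scale. The fold change was −1.35 (SE 0.46, limma adjusted p = 0.654), a 2.55-fold difference, and −0.90 without control array 2. The probe lies on chromosome X from 70738554 to 70738613.

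Omd, first described in bone, had signals of 321, 931 and 412 in controls and 181, 175 and 224 with the antagomir. The antagomir arrays were close together and below all controls, while control array 2 was the highest of the 6. The fold change was −1.14 (SE 0.38, limma adjusted p = 0.654), and −0.71 without control array 2. The probe lies on chromosome 13 from 49687847 to 49687906.

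Ogn, also called mimecan and linked to left ventricular mass in rats and humans, had the smallest difference of the 6. Its signals were 18147, 27622 and 20618 in controls and 13665, 12685 and 11575 with the antagomir. The groups were apart by only 0.11 on the log2 scale. The fold change was −0.55 (SE 0.20, limma adjusted p = 0.674), between −0.69 and −0.41 with 1 array left out. Ogn was probed on chromosome 13 from 49719549 to 49719608.

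Dcn, decorin, which binds collagen fibrils and TGF-beta, did not share the difference. Its signals were 154473, 163091 and 178508 in controls and 137774, 156540 and 127083 with the antagomir. Scaled to each array, the groups overlapped, and antagomir array 2 was the highest of the 6. The level was 8.55 ± 0.15 in controls and 8.55 ± 0.22 with the antagomir. The 95% interval of its fold change ran from −0.42 to 0.42, so that a difference in either direction of the size seen in Lum lies outside it. Its sign turned with array weights and with single arrays left out, and over all settings it ran from −0.47 to 0.11. Dcn was probed on chromosome 10 from 96980233 to 96980292.

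Podn, podocan, of a separate class and known in mice to restrain smooth muscle growth, had signals of 1080, 2205 and 1306 in controls and 802, 1439 and 1670 with the antagomir. The groups overlapped widely. The fold change was 0.01 (SE 0.35, 95% interval −0.86 to 0.87), between −0.46 and 0.30 over the other settings. Podn was probed on the minus strand of chromosome 4 from 107687484 to 107687543. Prelp, which binds heparan sulfate and collagen and is found near basement membranes, was dim. Its control signals were 26.2, 129 and 50.3, and its antagomir signals 41.3, 16.8 and 66.7. The spread within each group was larger than the difference between them, a fold change of −0.39 (SE 0.71, 95% interval −2.11 to 1.34). The Prelp probe rests on a cDNA accession, lies on chromosome 1 from 135806855 to 135806914, and is 65.0% purines, the kind of probe that was raised on antagomir array 3 when dim. Without control array 2 its value was 0.19 and without antagomir array 2 it was 0.14.

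**Figure D2:**
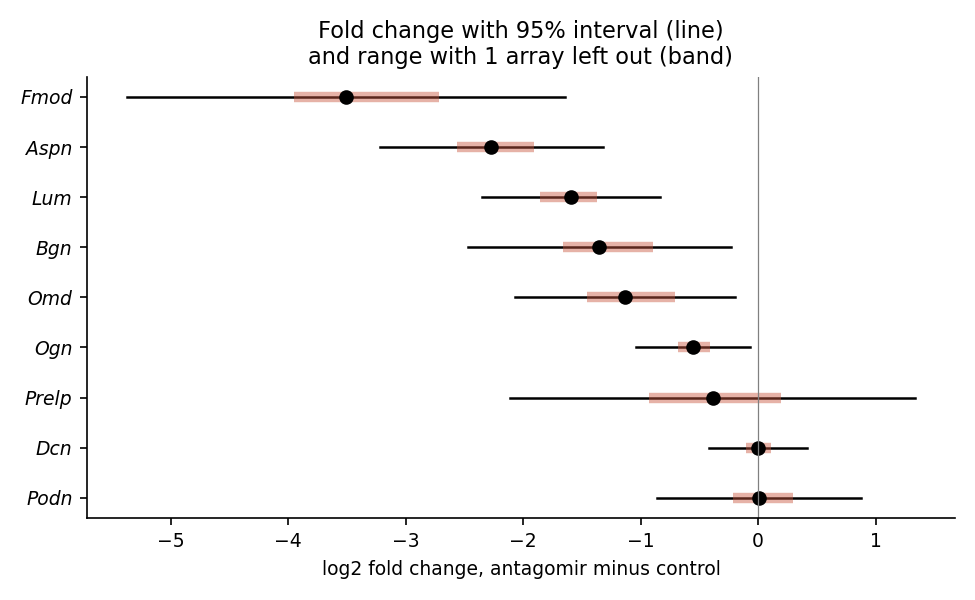
Log2 fold change of each gene, antagomir minus control (dots), with the 95% interval from limma (lines) and the range of values when each of the 6 arrays was left out in turn (red bands). The intervals of Fmod, Aspn, Lum, Bgn, Omd and Ogn lie below 0, and those of Prelp, Dcn and Podn cross it.

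The members' fold changes differed in size, though no difference between members passed after adjustment. Within each array, a gene was set against the mean of the other 8, which removes what the array's scaling and the whole family share. Fmod (−2.60) and Aspn (−1.21) were lower against the others on every antagomir array than on every control array. Podn (1.36), Dcn (1.35) and Ogn (0.73) were higher against the others on every antagomir array. For these 5 the exact two-sided permutation p was 0.1, the smallest that 3 against 3 allow, or 0.18 after adjustment over the 9 comparisons. Lum (−0.44), Bgn (−0.17), Omd (0.07) and Prelp (0.91) overlapped between the groups.

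Control array 2 had the highest level of the controls in 8 of the 9 genes, all but Dcn. Averaged over the 9 genes and relative to the control mean, the family stood at −0.41, 0.71 and −0.29 on control arrays 1 to 3 and at −1.39, −1.06 and −1.15 on antagomir arrays 1 to 3. The spread among controls was thus larger (SD 0.62) than among antagomir arrays (SD 0.18). The profiles of Bgn and Lum over the 6 arrays were the closest of the 36 pairs (root mean square difference 0.299 on the log2 scale), followed by Dcn and Ogn (0.340), while Dcn and Fmod were the farthest apart (2.01).

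**Figure D3:**
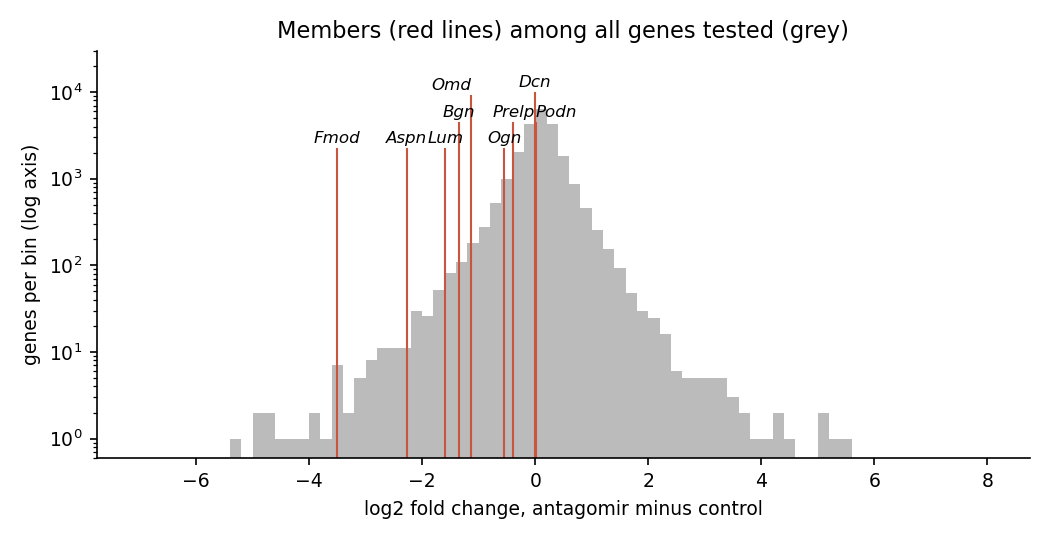
Log2 fold changes of all 22991 genes tested (grey, genes per bin on a log axis), with the 9 members marked by red lines. Fmod lies in the far lower tail at −3.51, and Dcn and Podn lie near 0, below the median of all genes (0.09).

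Most members lie in gene clusters. In the assembly GRCm38.p6, Dcn and Lum are adjacent coding genes on chromosome 10, Aspn, Omd and Ogn follow each other on chromosome 13, and Prelp and Fmod are adjacent on chromosome 1. Dcn minus Lum was 1.59 higher on the antagomir arrays, Aspn minus Omd was 1.14 lower, Aspn minus Ogn 1.72 lower, and Prelp minus Fmod 3.12 higher. For Prelp minus Fmod, with Prelp dim, the antagomir arrays stood from 1.67 to 4.33 above the control mean. Omd minus Ogn differed by −0.58, with overlap between the groups. Dcn minus Bgn, the members of 1 class that carry dermatan sulfate, was 1.35 higher. These 6 pairs were chosen after the values were seen, so that their differences are a description with no test. The next gene to Aspn on chromosome 13, Ecm2, a related matrix protein that is no member, had a fold change of −0.68 (SE 0.26), with every antagomir array below every control array.

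Of the other family genes, 7 of 9 were tested. Ecm2 was the only one with an unadjusted limma p under 0.05 in either direction, their median was −0.025, and none passed over all genes (limma). Chad (chondroadherin) stood at −0.55 (SE 0.38), Chadl at 0.06 (SE 0.14) and Tsku (tsukushi) at −0.025 (SE 0.13). Nyx, Podnl1 and Epyc (epiphycan) were dim and brightest on antagomir array 3. Nyx stood at 0.57 (SE 0.56). Podnl1 was well above background on 2 antagomir arrays and Epyc on 1, so neither fold is given. Kera (keratocan) and Optc (opticin) were well above background on fewer than 3 arrays and were not tested.

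Promoters of 7 of the 9 members were found in the RefSeq table (8 entries, 2 of them for Podn). The 250 bases before the gene start are shown for Fmod and Aspn, the members with the largest differences, and for Ogn, a cluster neighbour of Aspn with a small one. All are on the plus strand of GRCm38.p6: Fmod at chr1:134037004-134037253, Aspn at chr13:49544193-49544442 and Ogn at chr13:49607765-49608014. Capitals mark matches on either strand to the TATA box (TATAAA), the CCAAT box (CCAAT), the AP-1 site (TGANTCA) or the GC box (GGGCGG).
Fmod: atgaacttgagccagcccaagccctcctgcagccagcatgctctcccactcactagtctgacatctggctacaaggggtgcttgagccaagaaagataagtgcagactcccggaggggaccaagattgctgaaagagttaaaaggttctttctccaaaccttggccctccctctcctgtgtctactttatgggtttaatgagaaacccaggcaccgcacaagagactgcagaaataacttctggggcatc
Aspn: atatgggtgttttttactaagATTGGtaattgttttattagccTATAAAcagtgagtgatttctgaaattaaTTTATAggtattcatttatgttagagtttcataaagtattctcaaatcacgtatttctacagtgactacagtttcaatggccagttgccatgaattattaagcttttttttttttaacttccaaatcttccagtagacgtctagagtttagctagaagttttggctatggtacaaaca
Ogn: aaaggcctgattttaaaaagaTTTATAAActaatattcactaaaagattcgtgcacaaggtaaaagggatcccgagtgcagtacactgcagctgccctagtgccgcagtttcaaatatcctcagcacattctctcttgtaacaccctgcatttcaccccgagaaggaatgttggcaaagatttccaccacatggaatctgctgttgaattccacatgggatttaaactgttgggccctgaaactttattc
The TATA box letters occurred in the entries of Aspn and Ogn, the CCAAT box in those of Aspn and Prelp, the GC box in those of Bgn and Podn, and the AP-1 site in none. Among 32851 promoters of the same length, the shares were 12.4%, 33.8%, 32.7% and 6.75% in that order. The 2 TATA box matches in Ogn overlap each other. These are matches of letters, and genes with matches (Aspn) and without (Fmod) were both among those with large differences.

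The fibrillar collagens that these proteoglycans bind were lower by more. All 7 tested had an unadjusted limma p under 0.05 and lay below the controls on every antagomir array, with a median of −2.35, and 0 passed over all genes (limma). Col3a1 had a fold change of −3.33 (SE 0.53), Col1a1 of −2.82 (SE 0.50), Col1a2 of −2.17 (SE 0.37) and Col5a1 of −2.07 (SE 0.37). The mean of the 9 members minus the mean of these collagens was −0.60 ± 0.42 in controls and 0.64 ± 0.15 with the antagomir. On the antagomir arrays it was 1.24 higher, with every array above every control array (exact permutation p = 0.1, the smallest possible, two-sided). The value was 1.00 to 1.38 with any array left out.

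Fibroblast markers were lower too. Of all genes tested, 37.4% were lower, and 4.16% were lower with an unadjusted limma p under 0.05. Of 17 fibroblast markers, 14 were lower (median −0.91), 8 of them with an unadjusted limma p under 0.05, and 0 passed over all genes (limma). Their summed level, which the brightest probes dominate, overlapped between the groups, at −0.32, 0.44 and −0.11 on control arrays and −0.26, −0.28 and −0.39 on antagomir arrays relative to controls. The members' summed level overlapped too, at −0.13, 0.05 and 0.08 on control arrays and −0.17, 0.01 and −0.43 on antagomir arrays. Postn, periostin of activated fibroblasts, had a fold change of −3.71 (SE 0.66), Fap of −1.14 (SE 0.26), Smoc2 of −0.68 (SE 0.16) and Pdgfra, the receptor that marks the lineage, of −0.35 (SE 0.21, overlapping). Cthrc1 was well above background on 3 control arrays and 0 antagomir arrays and was at least 17.7-fold lower, against the lowest signal called above background. It is counted among the 8 above, with a p that rests on antagomir signals not called above background. The mean of the members minus the mean of these markers was −0.04 ± 0.20 in controls and −0.18 ± 0.17 with the antagomir, a difference of −0.14 with overlapping groups (exact permutation p = 0.4, two-sided). This mean takes Cthrc1 at its measured signal, below background on the antagomir arrays. Over the 16 markers other than Cthrc1, a choice made after seeing the data, the difference was −0.36 (exact permutation p = 0.1, the smallest possible). The groups all but touched. Relative to the control mean, control array 3 stood at −0.189 and antagomir array 3 at −0.191. In whole tissue, fewer fibroblasts and less of these RNAs in each fibroblast cannot be told apart.

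Enzymes that build the sugar chains of the family were measured too. Over all genes tested, 37.4% were lower, and 4.16% were lower with an unadjusted limma p under 0.05. Of 21 genes of the linker and of chondroitin and dermatan sulfate synthesis, 16 were lower (median −0.40), 7 with an unadjusted limma p under 0.05, and 0 passed over all genes (limma). Dsel, a dermatan sulfate epimerase-like gene, had a fold change of −0.97 (SE 0.24), Chpf2, a chondroitin polymerizing factor, of −0.77 (SE 0.26), Csgalnact1, which starts the chain, of −0.46 (SE 0.15) and Chst15, a sulfotransferase, of −0.44 (SE 0.13). Of 7 keratan sulfate genes 6 were lower by small amounts (median −0.16), with 0 at an unadjusted limma p under 0.05. Chst1, a keratan sulfotransferase, had −0.30 (SE 0.15) and B4galt4 −0.27 (SE 0.14).

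Proteases that process or cleave the core proteins were lower for 10 of 13 (median −0.78), 6 with an unadjusted limma p under 0.05. Of all genes tested, 37.4% were lower, and 4.16% were lower at that threshold. Bmp1, which removes the propeptide of biglycan, had a fold change of −1.21 (SE 0.31), and the metalloproteinases Mmp2, Mmp3 and Mmp14 had −1.66 (SE 0.26), −1.17 (SE 0.27) and −0.78 (SE 0.16). Of 18 receptors and signalling partners 15 were lower (median −0.55), 7 with an unadjusted limma p under 0.05. The TGF-beta ligands Tgfb3 (−1.58, SE 0.34) and Tgfb2 (−1.45, SE 0.48), the decorin endocytosis receptor Lrp1 (−0.80, SE 0.25) and Pdgfrb (−0.64, SE 0.18) had the smallest p-values. None of either list passed over all genes (limma).

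Markers of other cells of the heart were read on the same arrays. The median fold change over all genes tested was 0.09, and 37.4% of them were lower. All 13 cardiomyocyte markers were higher by small amounts (median 0.19, 0 with an unadjusted limma p under 0.05), Actc1, cardiac actin, by 0.11 (SE 0.13). Their summed level relative to controls was −0.13 to 0.07 on control arrays and 0.11 to 0.21 on antagomir arrays. Atrial markers were uneven, with 4 of the 8 tested lower and 4 higher (median 0.28). Only Nr2f2 had an unadjusted limma p under 0.05, and it was lower (−0.43, SE 0.13). The summed level of the list was −0.24 to 0.46 on control arrays and −3.27, −0.24 and 0.79 on antagomir arrays 1 to 3. Sln, sarcolipin of the atria, had signals of 27.3, 104 and 608 in controls and 131, 12445 and 39411 with the antagomir. All 7 adipocyte markers tested were higher, but Plin1, Retn, Cidec and Adipoq were each well above background on only 1 or 2 of the control arrays, so no fold is given. Adipoq, adiponectin, had signals of 7.48, 41.0 and 237 in controls and 72.8, 464 and 475 with the antagomir. The summed level of the adipocyte markers was −0.28 to 0.16 on control arrays and 0.19 to 0.45 on antagomir arrays, without overlap, while their mean log2 level overlapped. Macrophage markers were lower for 10 of 12 (median −0.27, 0 at an unadjusted limma p under 0.05), with Adgre1, the F4/80 antigen, at −0.61 (SE 0.58). Their summed level was −0.05 to 0.04 on control arrays and −0.34, 0.70 and −0.96 on antagomir arrays 1 to 3. Tendon, cartilage and valve markers were lower for 6 of the 7 tested (median −1.89), with Comp, a cartilage matrix protein, at −4.96 (SE 0.69) and Scx, a tendon transcription factor, at −1.07 (SE 0.36). Of the 12 on this list, Mkx, Col2a1, Matn3, Matn1 and Runx2 were well above background on fewer than 3 arrays and were not tested. Among the first genes of these lists, Actc1, Sln, Adipoq and Adgre1 overlapped between the groups, and Scx did not. The part of these other cells in the members' values was not tested.

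**Figure D4:**
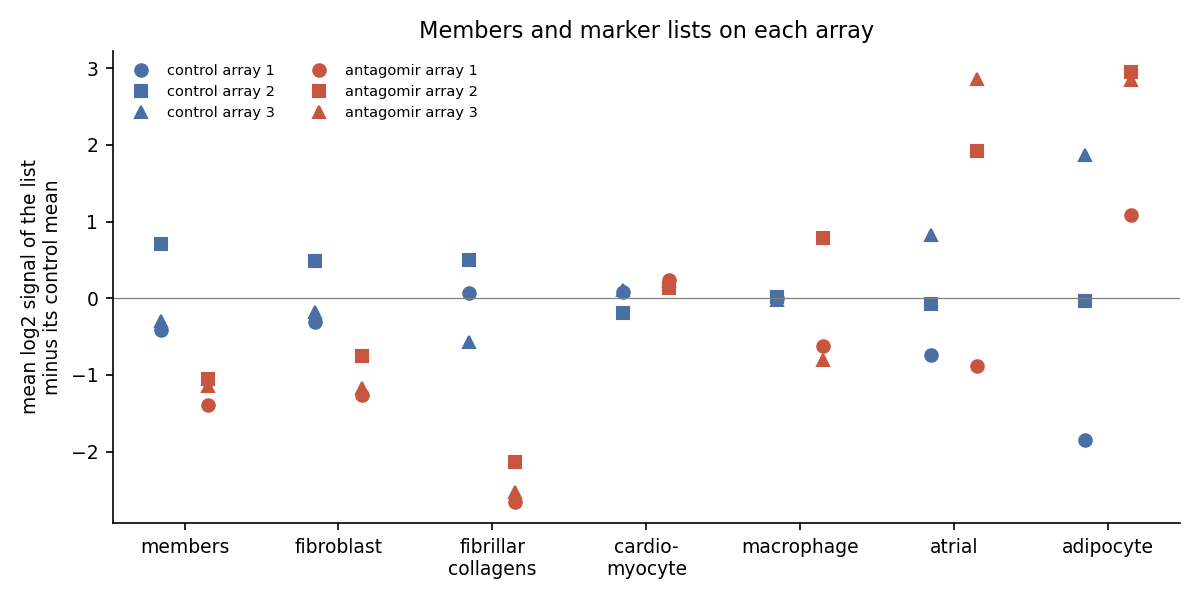
Mean log2 signal of each list on each array, minus its mean over the control arrays (blue, control; red, antagomir; symbols, array number). On the antagomir arrays the members lie at −1.39 to −1.06, the fibroblast markers, Cthrc1 included, at −1.26 to −0.75 and the fibrillar collagens at −2.65 to −2.14, and the atrial and adipocyte markers differ widely between arrays of 1 group.

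The 5 other genes whose profile over the 6 arrays was closest to the mean of the 9 members were Mrc2, the collagen receptor Endo180 (root mean square difference 0.057 on the log2 scale), Fzd2, a frizzled receptor of Wnt (0.062), Gpr153 (0.089), Pkd1, polycystin (0.105), and Prss23, a secreted protease (0.127). Mrc2 stood at 0.14, 1.28 and 0.26 on control arrays 1 to 3 and at −0.77, −0.34 and −0.57 on antagomir arrays 1 to 3, relative to its mean over all arrays. The members' mean stood at 0.19, 1.31 and 0.31 and at −0.80, −0.46 and −0.55. The likeness is a description over 6 arrays.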

How the data were processed

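Total RNA of 6 heart samples, 3 a group, was labelled with Cy3. Agilent Feature Extraction 10.7.1.1 wrote the deposited scanner tables, per the file headers. Their processed signal is an intensity, background-subtracted and detrended within an array and not scaled between arrays. The deposited flags used here (well above background, outlier, saturated) are 0 or 1. The authors' deposited table holds raw intensities equal to these signals within 1% and normalised log2 values by a method not given in the sources used here. Once sorted, its normalised columns were the same within 0.0014, as after quantile scaling. The settings with quantile scaling and with the authors' table are thus near copies (Fmod −3.60 in both).

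Control and outlier spots (154 to 233 an array) were left out, repeat spots of a probe were averaged as log2 values, and 55661 of 55681 gene probes had a value on every array. From each log2 processed signal the 75th percentile of its array was subtracted. Of these probes, 31716 had 3 or more of 6 arrays well above background and were tested. Where a gene had several, the one of highest mean over all arrays stood for it. Names were updated with a RefSeq table (GRCm38.p6), by accession for 26574 probes, by symbol for 2600 and by synonym for 492, and the rest kept the file's name. Positions of probes come from the array's own design (mm9).

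The comparison used limma 3.58.1 under R 4.3.3 (two-sided, Benjamini-Hochberg adjustment over all genes tested, threshold 0.05). The same fit was also run on simulated data that took the means and SDs of the genes tested. Permutation tests used scipy 1.17.1, and other steps Python 3.11.15 with numpy 2.4.6, pandas 2.3.3 and, for figures, matplotlib 3.10.9. Arrays give no counts, and their number limits the precision. Named are the members, up to 4 genes of each list by the smallest p, the first gene of each marker list, all other family genes, and the 5 genes closest in profile. The members and lists were chosen with earlier results of these data known. Alternatives were other scalings and background correction, the authors' table, other filters, the mean of probes, a variance trend, array weights, the replicate number and the slide row as blocks, and each array left out.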

Additional observations from a re-analysis of the deposited data

How the results depend on the processing

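Fmod, Aspn, Lum, Bgn, Omd and Ogn were lower in all 18 other settings, from −3.98 to −2.63 for Fmod, −2.74 to −1.69 for Aspn, −2.06 to −1.24 for Lum, −1.82 to −0.74 for Bgn, −1.61 to −0.61 for Omd and −1.02 to −0.29 for Ogn. With median scaling the median over all genes was −0.38 (0.09 with the 75th percentile, −0.029 with quantile scaling). Under it 87.0% of genes were lower (37.4% and 54.2%), and every gene had the same SE of 0.60. The median subtracted from every gene was 6.22 on antagomir array 3, the array with raised dim probes. It was 4.55 to 4.95 on the other arrays. With this scaling Fmod (−3.98) and Aspn (−2.74) passed the adjusted threshold, Podn was −0.46, the members' median was −1.61, and 199 genes passed. Signs also turned for Podn with normexp (−0.020) and, with array weights, for Dcn (0.053) and Prelp (0.62), with a members' median of −0.61. With 1 array left out, Dcn ran from −0.10 to 0.11, Podn from −0.21 to 0.30, Prelp from −0.93 to 0.19, the members' median from −1.46 to −0.71 (the latter without control array 2), Bgn against the other members from −0.41 to 0.042 and Omd against them from −0.056 to 0.21. Over all genes 3 passed (Defa-ps1, Gngt1 and a probe with no gene symbol, named after their values were seen), 0 to 3 with 1 array left out (911 to 2468 at an unadjusted limma p under 0.05), 7 with array weights, 1 with quantile scaling, with the authors' table and with no filter, and 0 with normexp (1868 at an unadjusted limma p under 0.05) or above background on all 6 arrays (1589). Whether replicate numbers pair the samples is not stated. Correlations of deviations were 0.222, 0.142 and −0.049 for equal numbers 1 to 3, and −0.280 to 0.170 for unequal numbers. With replicate number as a block 0 genes passed by limma. At an unadjusted limma p under 0.05 there were 2272 genes with the block and 1658 without it. Of the 9 members, 5 were under that unadjusted threshold with the block and 6 without it. Blocking on slide row, which compares control array 3 alone with the antagomir arrays since row 1 holds only control arrays 1 and 2, 0 genes passed (307 unadjusted by limma), Bgn was −0.74 and 2 members had an unadjusted p under 0.05. The cause of these shifts was not tested. Among the members, Fmod (SE 0.76) and Prelp (SE 0.71) were the least precise.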

Other observations

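Large and cell-surface proteoglycans, which share sugar chains but not the leucine-rich repeats, were lower for 14 of the 19 tested (median −0.38), 6 with an unadjusted limma p under 0.05, and 0 passed over all genes (limma). Prg4, lubricin of joint surfaces, had a log2 fold change of −1.66 (SE 0.36), Vcan, versican of the provisional matrix, of −1.50 (SE 0.49), Sdc1, syndecan-1, of −1.39 (SE 0.27), and Cspg4, the pericyte proteoglycan NG2, of −0.63 (SE 0.20). Each lay below the controls on every antagomir array, as did 6.93% of all genes. Smooth muscle and pericyte markers were lower for 7 of 11 and higher for the other 4 (median −0.34). Named for their small p-values, Cnn1 (−1.30, SE 0.43), Tagln (−1.11, SE 0.34) and Pdgfrb (−0.64, SE 0.18) were among the lower ones. Myh11 was lower too (−0.50, SE 0.40), with overlap between the groups. Endothelial markers were lower for 10 of 12 (median −0.11), with Erg at −0.61 (SE 0.17), and Pecam1 at 0.01 (SE 0.15). Epicardial markers were lower for 6 of 9 (median −0.084), with Tbx18 at −0.79 (SE 0.24) and Wt1 at −0.013 (SE 0.38).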
